A study of Mus musculus with 12 samples.

Results

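Matrix metalloproteinases (MMPs), their tissue inhibitors (TIMPs), the ADAMTS proteases and the lysyl oxidases were examined in mouse prostate tumours grown in hosts with and without p62. A gene was included when a probe set of the array carried exactly 1 gene symbol and that symbol named an MMP, a TIMP, an ADAMTS protease or a lysyl oxidase. Mmp8 and Mmp9 were not included. This gave 46 genes of 19937 measured, made up of 20 MMPs, 4 TIMPs, 18 ADAMTS proteases and 4 lysyl oxidases, and where several probe sets fitted a gene, the one with the highest mean was taken. Mmp15, Mmp26, Adamts2 and Loxl2 had no such probe set under the annotation used and were not analysed here.

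The injected cells were TRAMP-C2Re3, a line of mouse prostate carcinoma, and 50000 of them had been placed into the prostate of each C57BL6 mouse 60 days before harvest. The host was p62 KO in 6 cases, named KO1 to KO6 here, and wild type (WT) in 6 cases, named WT1 to WT6, with 1 mouse per tumour. The labels name neither the KO allele nor the age of the mice. These cells were the same in both groups and carry their own Sqstm1, the gene for p62, so that p62 was missing in host cells only. Total RNA of each whole tumour was amplified and measured on an array of its own in 1 colour, and the values are log2 intensities after robust multi-array averaging (RMA). In such bulk RNA, fewer cells of a type and less RNA per cell cannot be told apart.

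MMPs are zinc-dependent endopeptidases that cleave collagens, proteoglycans and other matrix and cell-surface proteins. They are made as inactive precursors, are switched on by other proteases, and are held in check by TIMPs, which occupy the active site. ADAMTS proteases process procollagens and cut proteoglycans such as versican and aggrecan, while lysyl oxidases are copper-dependent enzymes that cross-link collagen and elastin. In prostate and other carcinomas these genes are known from fibroblasts, macrophages and other stromal cells as well as from carcinoma cells.

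A run of MMP genes on mouse chromosome 9 carried the widest differences between tumours. In RefSeq gene order it reads Mmp13, Mmp12, Mmp1b, Mmp3, Mmp1a, Mmp10, Mmp8, Mmp27, Mmp20 and Mmp7, between Dcun1d5 and Tmem123, and 9 of its genes are among the 46. They were set apart after their values had been seen. The 100 bases before the RefSeq start of 7 of them (assembly GRCm38.p6) are shown because many promoters of this run share 2 short words. Capitals mark TGAGTCA or TGACTCA, the word bound by AP-1 factors in its 2 orientations, and TATAAA, the TATA box on the gene's own strand. The stretches lie at chr9:7272414-7272513 (plus strand) for Mmp13, chr9:7388027-7388126 (minus strand) for Mmp1b, chr9:7445722-7445821 (plus) for Mmp3, chr9:7464041-7464140 (plus) for Mmp1a, chr9:7502242-7502341 (plus) for Mmp10, chr9:7571296-7571395 (plus) for Mmp27 and chr9:7628131-7628230 (plus) for Mmp20.
Mmp13: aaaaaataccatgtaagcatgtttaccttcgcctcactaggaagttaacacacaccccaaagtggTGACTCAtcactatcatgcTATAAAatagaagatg
Mmp1b: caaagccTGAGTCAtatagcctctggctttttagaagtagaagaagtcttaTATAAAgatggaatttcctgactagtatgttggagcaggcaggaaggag
Mmp3: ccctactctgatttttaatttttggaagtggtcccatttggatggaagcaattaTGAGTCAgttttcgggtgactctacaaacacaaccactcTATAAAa
Mmp1a: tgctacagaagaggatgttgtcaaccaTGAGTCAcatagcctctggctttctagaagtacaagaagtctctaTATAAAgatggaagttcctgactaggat
Mmp10: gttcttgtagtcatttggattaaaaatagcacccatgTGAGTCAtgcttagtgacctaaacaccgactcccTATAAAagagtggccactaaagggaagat
Mmp27: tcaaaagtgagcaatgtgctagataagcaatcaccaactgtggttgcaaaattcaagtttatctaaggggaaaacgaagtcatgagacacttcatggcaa
Mmp20: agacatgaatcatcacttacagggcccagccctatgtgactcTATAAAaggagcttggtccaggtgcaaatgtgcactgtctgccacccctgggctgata

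The AP-1 word begins 35 bases before the start of Mmp13, 46 before Mmp3, 63 before Mmp10, 73 before Mmp1a and 93 before Mmp1b. Over the whole RefSeq promoter window, 250 bases before to 50 after the start, it was found in 7 of the 9 genes of the run, Mmp7 and Mmp12 included, and not in Mmp27 or Mmp20. It was found in 0 of the 21 other genes among the 46 that have a RefSeq promoter, and in 1607 of all 27025 genes. Counted by promoter, it was found in 7 of 11 in the run and in 5.20% of all 32851. TATAAA was found in 8 of the 9 genes, in 2 of the other 21 (Adamts1 and Mmp21), and in 2641 of all 27025. By promoter it was found in 8 of 11 in the run and in 8.32% of all. In Mmp12 TATAAA begins after the start, not before it, and the other promoter of this gene holds neither word. The 2 words do not overlap in the stretches printed. A word in a sequence is a description of letters, and neither binding nor use of these promoters was measured.

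Arrays of the 12 tumours correlated at 0.935 to 0.991. The interquartile range of the log2 values was 2.15 to 2.59 in KO2, KO3, WT2 and WT5 and 2.70 to 2.95 in the other 8 tumours. The lower quartile of an array was 5.08 to 5.36 in those 4 and 4.85 to 4.99 in the other 8. Those 4 narrow arrays enter several results below, and 11.0% of all genes had exactly these 4 tumours as their 4 highest. The 6 macrophage markers averaged 8.84 to 9.23 in the narrow tumours and 9.25 to 9.78 in the others, and 8 fibroblast markers averaged 8.82 to 9.27 against 9.16 to 9.62. The 6 endothelial markers averaged 7.18 to 7.83 against 7.78 to 8.22, while 6 markers of carcinoma epithelium averaged 5.95 to 6.40 against 5.83 to 6.01, 5 of skeletal muscle 5.99 to 6.40 against 5.85 to 6.00, and 5 of cartilage and bone 5.78 to 6.14 against 5.54 to 5.77. Of these lists, only those of macrophages and of cartilage and bone had averages that did not overlap between narrow and other tumours. The averages overlapped for fibroblasts, endothelium, carcinoma epithelium and skeletal muscle. They also overlapped for smooth muscle (6.77 to 7.24 against 6.97 to 7.43), neutrophils (5.49 to 6.08 against 5.33 to 5.97) and prostate gland (3.69 to 3.99 against 3.58 to 4.47). The same held for adipocytes (6.30 to 6.75 against 5.71 to 6.57), mast cells (4.84 to 5.33 against 4.91 to 5.14) and lymphocytes (5.58 to 6.16 against 5.67 to 6.36). All 6 measured markers of prostate gland secretion and identity (Pbsn, Tgm4, Spink1, Msmb, Sbp and Defb50), and Epcam and Krt5 among the epithelial ones, averaged below the highest lower quartile. So did Myh4 and Mylpf of skeletal muscle and Acan and Ibsp of cartilage and bone. No scan time, batch or RNA quality value is given in the labels, and the parts of array spread and tissue content in these averages were not tested.

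The comparison between hosts called 0 of the 46 genes in either direction (limma, adjusted p under 0.05), where 0.00355% of all probe sets were called, 0 higher and 1 lower. The smallest adjusted p among the 46 was 0.9935. At an unadjusted p under 0.05 there was 1 gene, Timp3, lower in KO hosts, against 2.39% of all probe sets, of which 1.28% were higher and 1.11% lower. In 0 of the 46 genes did the 6 KO tumours and the 6 WT tumours fail to overlap, against 0.145% of probe sets. The difference, KO hosts minus WT hosts throughout, was positive in 30 of 46 genes (65.2%) with a median of 0.06 on the log2 scale, where 55.6% of all genes were positive with a median of 0.02. It was positive in 22 of 46 without KO2 and KO3 (median -0.02, with 49.4% of all genes positive) and in 22 of 46 with array weights (median -0.0074, with 49.7% of all genes). In 27 of the 46 genes the sign of the difference turned under at least 1 other setting or with 1 tumour left out. By family the median difference was 0.11 for MMPs (13 of 20 positive), 0.04 for TIMPs (2 of 4), 0.02 for ADAMTS proteases (13 of 18) and 0.10 for lysyl oxidases (2 of 4). The MMP median turned to -0.06 without KO2 and KO3 (8 of 20 positive) and to -0.08 with array weights, and the ADAMTS median to -0.02 when arrays were shifted to a common median (8 of 18 positive). The TIMP median turned to -0.04 without KO2 and KO3 and to -0.05 with array weights, and the lysyl oxidase median to -0.05 without KO4.

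**Figure D1:**
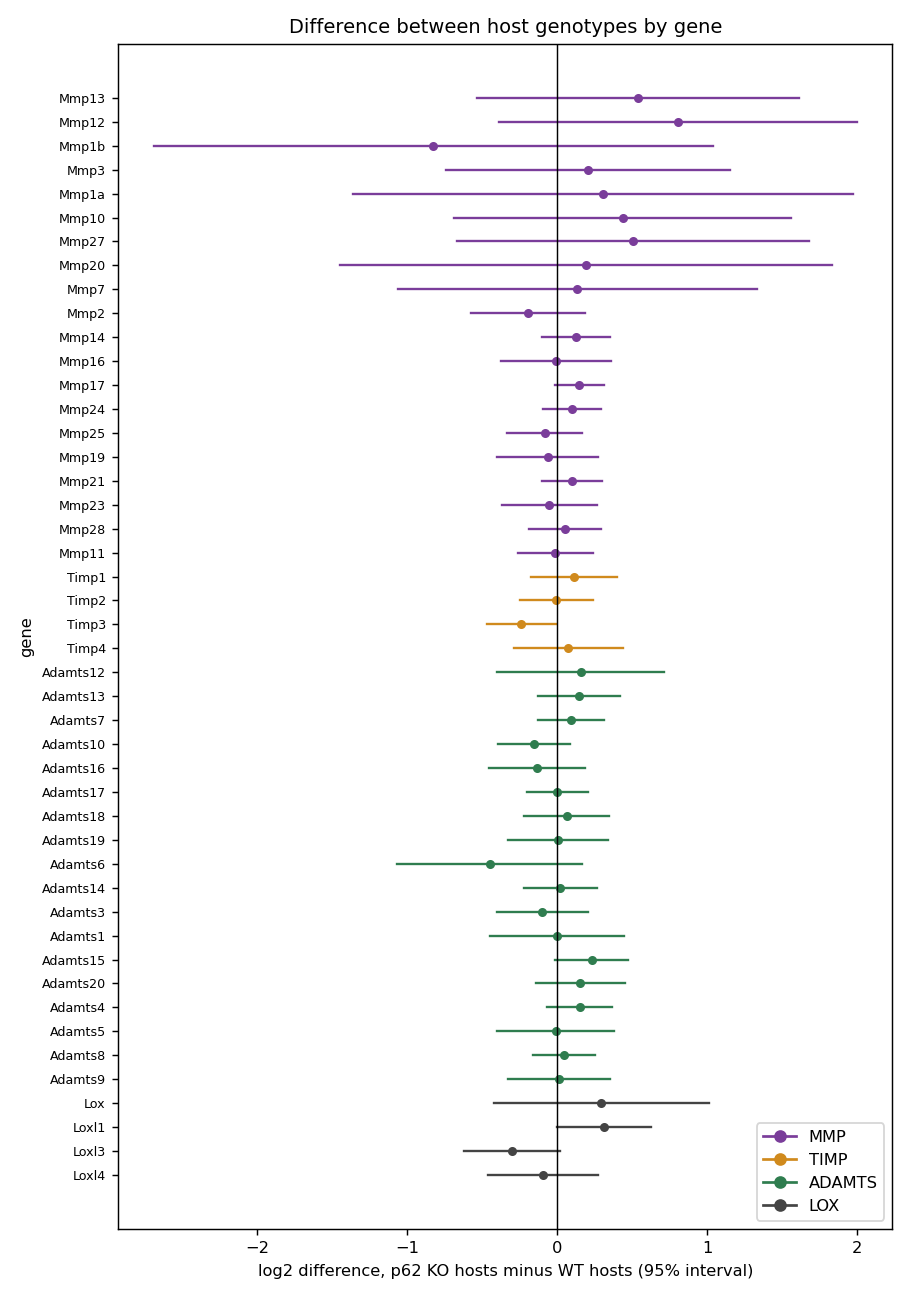
Log2 difference between tumours of p62 KO and WT hosts (x axis, KO minus WT) for each of the 46 genes, with 95% intervals from limma, coloured by family. The intervals of the 9 genes of the chromosome 9 run at the top are the widest, and the interval of Timp3 ends just below 0 at -0.0069.

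The spread over all 12 tumours set the genes of the chromosome 9 run apart from the other members. Their SD over the 12 tumours was 0.85 to 1.72, and they were the 9 most variable of the 46, where the other 37 had SDs of 0.11 to 0.65 with a median of 0.23, as did all genes (0.23). Of all 19937 genes, 0.431% had an SD above the lowest of the run. Mmp1b was the most variable gene of the array, Mmp1a ranked 3, Mmp20 ranked 4, Mmp12 ranked 21, Mmp27 ranked 25, Mmp7 ranked 26, Mmp10 ranked 34, Mmp13 ranked 37 and Mmp3 ranked 87. In 7 of the 9 the 4 highest tumours were exactly KO2, KO3, WT2 and WT5, the 4 narrow arrays, which was so in 4 of the other 37. The exceptions were Mmp1b, which was highest in WT6, and Mmp3, in which KO1 and WT4 stood among the 4 highest. Within the 8 tumours with wider arrays the SDs of the run were 0.25 to 1.42, and those of the other 37 were 0.05 to 0.67. Only Mmp1b at 1.42 and Mmp3 at 0.675 then lay above the highest of the others, Lox at 0.670. The other genes of the run lay within the range of the 37. The part of array spread, and of the cell type markers that move with it, in these levels was not tested.

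**Figure D2:**
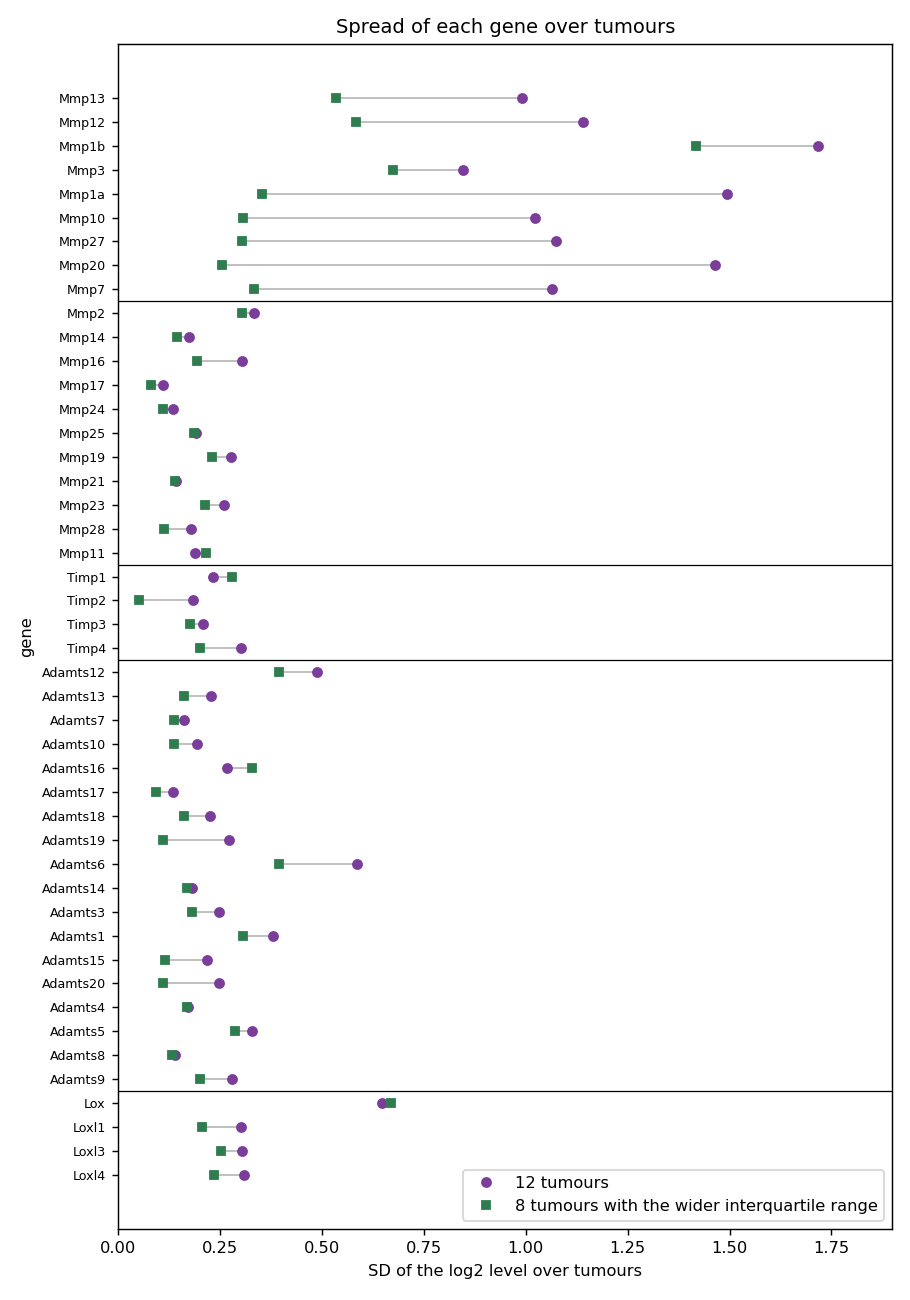
SD of the log2 level (x axis) of each of the 46 genes over all 12 tumours (circles) and over the 8 tumours with the wider interquartile range (squares). The 9 genes of the chromosome 9 run at the top have SDs of 0.85 to 1.72 over 12 tumours. Within the 8, Mmp20 goes to 0.25, where the genes outside the run have 0.05 to 0.67.

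Averaged over the 9 genes, KO3 stood 1.97 above the mean of the 12 tumours, KO2 1.83, WT5 1.13 and WT2 0.56, and the other 8 tumours stood at -0.36 to -0.99. The other 37 genes averaged between -0.12 and 0.09 in each tumour, and in such an average genes that go opposite ways cancel. In KO2 and KO3, for example, Adamts6 stood at 6.36 and 6.30 (mean of the 12 tumours 7.36), and Timp4 at 5.49 and 5.46 (mean 4.96). KO2 and KO3 were among the 4 highest tumours in all 9 genes of the run, WT2 in 8 and WT5 in 7. With 2 of these 4 tumours in each group, the difference between hosts was positive in 8 of 9 genes with a median of 0.31 over 12 tumours. It was positive in 1 of 9 with a median of -0.41 without KO2 and KO3 (smallest adjusted p = 0.638, limma), which leaves WT2 and WT5 in. Without all 4 it was positive in 3 of 9, with a median of -0.28 (smallest adjusted p = 0.743), and it was positive in 5 of 9 with a median of 0.02 when the interquartile range entered as a covariate.

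**Figure D3:**
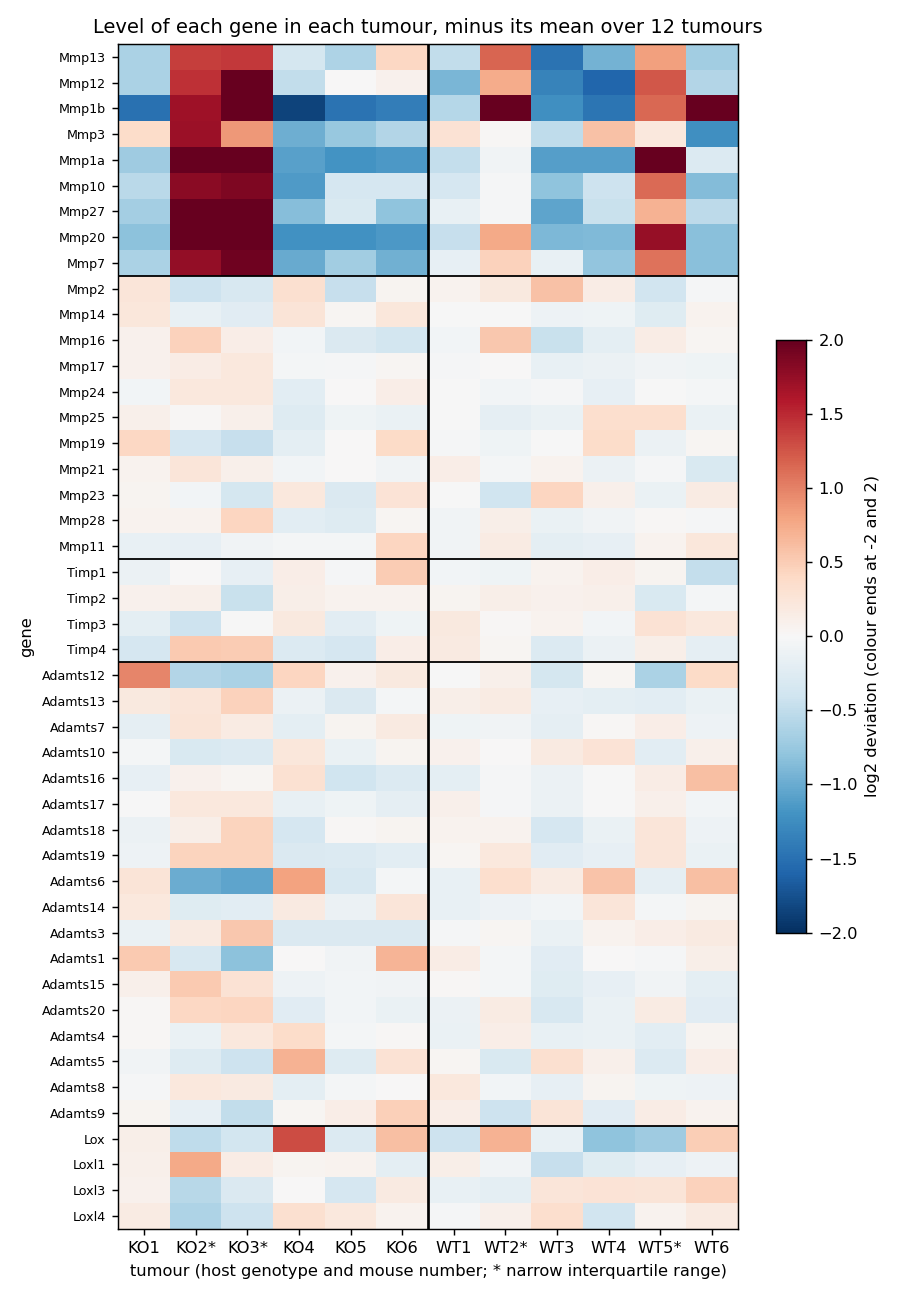
Log2 level of each of the 46 genes (rows) in each tumour (columns, KO1 to KO6 then WT1 to WT6) minus the gene's mean over 12 tumours, with the colour scale ending at -2 and 2. Columns KO2, KO3 and WT5, and in most rows WT2, are red across the chromosome 9 run at the top, and the other rows have SDs of at most 0.65.

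The interstitial collagenases cut fibrillar collagen, and 3 of the 46 genes were grouped with them here by name and descent, not by measured activity. Mmp13, collagenase-3, had log2 levels with a lowest, median and highest of 7.91, 8.58 and 9.96 in KO hosts, against 7.07, 7.94 and 9.71 in WT hosts. Levels of 9.37 or more occurred in KO2, KO3, WT2 and WT5, and the other 8 tumours reached at most 8.96. The means were 8.81 ± 0.95 (SD, n = 6) in KO hosts and 8.27 ± 1.04 (SD, n = 6) in WT hosts, a difference of 0.54 (SE 0.50), and it was -0.025 without KO2 and KO3.

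Mmp1a and Mmp1b are rodent copies of the gene known in humans as MMP1. Mmp1a stood at 5.06, 5.35 and 9.09 in KO hosts, against 5.15, 5.87 and 8.34 in WT hosts. Only KO2, KO3 and WT5 exceeded 8, at 8.47, 9.09 and 8.34, WT2 came next at 6.18, and the remaining 8 tumours lay between 5.06 and 5.98. The difference of 0.31 (SE 0.77) covered a 95% interval from -1.36 to 1.97, and it was -0.11 and -0.23 without KO2 and KO3 in turn. Mmp1b stood at 4.39, 4.82 and 8.26 in KO hosts, against 4.79, 6.54 and 8.77 in WT hosts, and its high tumours were WT6, WT2, KO3, KO2 and WT5, all at 7.40 or more, with the other 7 at 5.68 or less. In 4 tumours Mmp1b lay below the lower quartile of its own array. Its difference of -0.82 (SE 0.87) was the most negative of the 46, with an interval from -2.69 to 1.04. It was -0.40 without WT6, -0.50 without WT2, -1.31 without KO3 and -1.96 without KO2 and KO3. Cross-hybridisation between these similar copies was not tested.

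Mmp2, gelatinase A, which degrades denatured collagen and basement membrane collagen, lies outside the run and varied less. It stood at 10.03, 10.36 and 10.81 in KO hosts, against 10.11, 10.60 and 11.08 in WT hosts. KO5 and KO2 were the lowest tumours and WT3 the highest, and the groups overlapped over most of their range. Its difference was -0.19 (SE 0.18, 95% interval -0.57 to 0.19).

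Stromelysins and matrilysin have broad substrates, among them the precursors of other MMPs, and Mmp12 encodes the macrophage elastase. Mmp12 stood at 7.72, 8.40 and 10.36 in KO hosts, against 6.77, 7.61 and 9.59 in WT hosts. KO3, KO2, WT5 and WT2 were highest, from 10.36 down to 9.10, and the other 8 tumours lay between 6.77 and 8.44. Means of 8.76 ± 1.08 in KO hosts and 7.95 ± 1.14 in WT hosts (SD, n = 6 each) gave the most positive difference of the 46, 0.81 (SE 0.55, unadjusted p = 0.168, adjusted p = 0.9935, limma). It was 0.14 without KO2 and KO3 and 0.84 without all 4 narrow arrays, it ranged from 0.49 to 1.14 as each tumour was left out, and KO tumours above the highest WT tumour numbered 2.

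Mmp3, stromelysin-1, departed from the pattern of its neighbours. It stood at 7.83, 8.69 and 10.51 in KO hosts, against 7.58, 8.92 and 9.39 in WT hosts, and KO2, KO3, WT4 and KO1 were highest. WT6, among the highest in Mmp1b, was the lowest in Mmp3. The difference was 0.21 (SE 0.44) and -0.39 without KO2 and KO3. Mmp10, stromelysin-2, stood at 6.15, 6.94 and 9.14 in KO hosts, against 6.41, 6.91 and 8.41 in WT hosts. The medians of Mmp10 differed by little, KO3, KO2 and WT5 were apart at 8.41 or more, and its difference of 0.44 (SE 0.52) turned to -0.37 without KO2 and KO3.

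Mmp7, matrilysin, is known from glandular epithelium. It stood at 6.34, 6.69 and 9.30 in KO hosts, against 6.51, 7.19 and 8.43 in WT hosts. The 4 narrow arrays were at 7.81 or more and the other 8 at 7.20 or less, and its difference was 0.13 (SE 0.56). Mmp11, stromelysin-3, which is activated inside the cell by furin, lies outside the run and stood at 7.39, 7.50 and 7.98 in KO hosts, against 7.37, 7.56 and 7.78 in WT hosts, with a difference of -0.01 (SE 0.12).

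Mmp20, enamelysin, is known as a protease of forming tooth enamel, and Mmp27 is its neighbour in the run. Mmp20 stood at 5.72, 5.95 and 9.60 in KO hosts, against 6.04, 6.29 and 8.69 in WT hosts. KO3, KO2, WT5 and WT2 were at 9.60, 9.25, 8.69 and 7.69, and the other 8 tumours lay between 5.72 and 6.48, the tightest low group of the run with an SD of 0.25. The difference was 0.19 (SE 0.76), and it was -1.004 without KO2 and KO3 (adjusted p = 0.638, limma). Mmp27 stood at 6.85, 7.20 and 9.80 in KO hosts, against 6.64, 7.40 and 8.39 in WT hosts. KO2 and KO3 were apart from the rest at 9.80 and 9.76, and WT2 at 7.67 was close to WT1 at 7.55. Its difference was 0.51 (SE 0.54), and -0.41 without KO2 and KO3. Mmp7 and Mmp27 were added to the genes described in full after their values were seen.

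**Figure D4:**
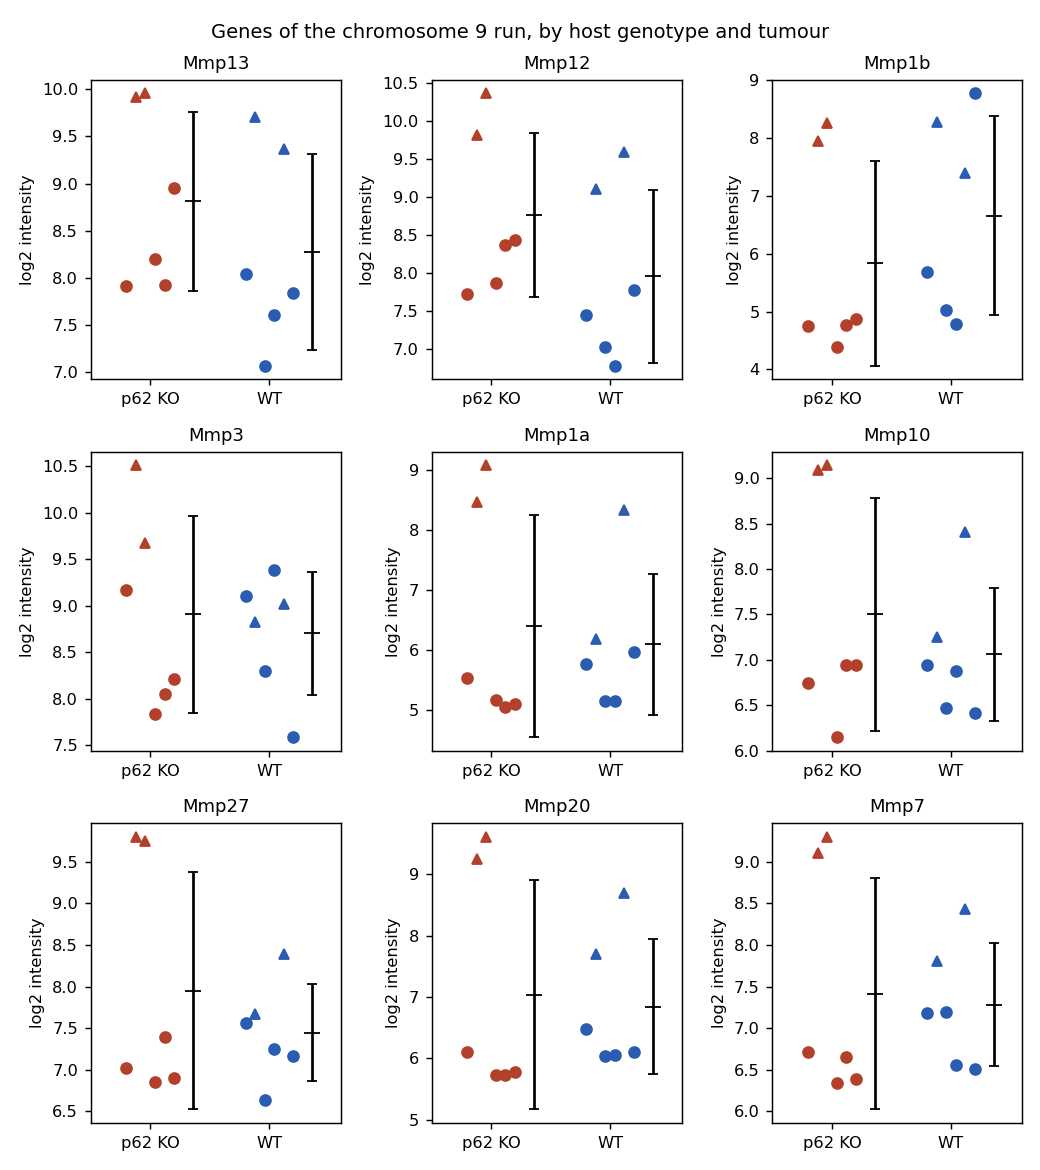
Log2 intensity (y axis) of the 9 genes of the chromosome 9 run in each tumour of p62 KO hosts (red, left) and WT hosts (blue, right), with the mean and SD of the 6 tumours beside them and triangles for the 4 arrays with the narrowest interquartile range. In 7 of the 9 panels the 4 triangles are the highest points, and Mmp1b in WT6 is a high point with a wide array.

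Membrane-type MMPs sit at the cell surface, and 5 were measured. Mmp14, which cleaves collagen at the cell surface and activates the precursor of Mmp2, stood at 10.18, 10.53 and 10.67 in KO hosts, against 10.16, 10.36 and 10.48 in WT hosts. KO4, KO1 and KO6 lay above the highest WT tumour, while KO3 and KO2 lay near the low end of both groups. The difference was 0.13 (SE 0.10, 95% interval -0.10 to 0.35). Mmp17, anchored by a lipid, stood at 5.69, 5.79 and 5.94 in KO hosts, against 5.57, 5.64 and 5.73 in WT hosts. KO tumours above all WT tumours numbered 4, KO2 and KO3 among them, and the difference of 0.15 (SE 0.08, unadjusted p = 0.0723, adjusted p = 0.9935, limma) was the most precise of the 46. It was 0.093 without KO2 and KO3, and its probe set was among those left out as dim. Mmp25, a lipid-anchored form known from leukocytes, stood at 5.20, 5.42 and 5.56 in KO hosts, against 5.28, 5.39 and 5.80 in WT hosts, with WT4 and WT5 highest and a difference of -0.08 (SE 0.12) that was -0.022 without WT4 and -0.023 without WT5.

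Mmp24 differed by 0.10 (SE 0.09), with 4 KO tumours above the highest WT tumour and KO4 the lowest of all 12. Mmp16 differed by -0.0080 (SE 0.17), and it lay below the lower quartile of its own array in all 12 tumours, and whether this probe set was above background was not tested. Among the MMPs of other kinds, Mmp19 differed by -0.06, Mmp23 by -0.05, Mmp28 by 0.05 and Mmp21 by 0.10, with SEs of 0.09 to 0.16. Their levels over the 12 tumours spanned 6.44 to 7.31 for Mmp19, 8.08 to 8.92 for Mmp23, 5.56 to 6.24 for Mmp28 and 5.49 to 6.04 for Mmp21.

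The 4 TIMPs had SDs of 0.18 to 0.30 over the 12 tumours. Timp3, which binds to the matrix and also inhibits ADAM and ADAMTS proteases, stood at 9.44, 9.73 and 10.06 in KO hosts, against 9.80, 10.00 and 10.15 in WT hosts. KO2, KO5, KO1 and KO6 lay below the lowest WT tumour, and KO4 stood among the highest of all. Means of 9.74 ± 0.21 in KO hosts and 9.98 ± 0.13 in WT hosts (SD, n = 6 each) differed by -0.24 (SE 0.11, 95% interval -0.47 to -0.0069), at an unadjusted p of 0.0444 and an adjusted p of 0.9935 (limma). The difference stayed negative as each tumour was left out, between -0.30 and -0.18. Its unadjusted p (limma) was not under 0.05 with a trended, robust variance model, nor without KO2, KO5, WT3, WT5 or WT6 in turn.

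Timp1, which is induced by cytokines of the interleukin-6 family, stood at 8.42, 8.59 and 9.10 in KO hosts, against 8.11, 8.60 and 8.73 in WT hosts. KO6 was high and WT6 low, and the other 10 tumours lay between 8.42 and 8.73. Its difference was 0.11 (SE 0.13), and it was 0.023 without KO6 and 0.029 without WT6. Timp2, which takes part with Mmp14 in activating the precursor of Mmp2, stood at 9.77, 10.28 and 10.32 in KO hosts, against 9.91, 10.28 and 10.32 in WT hosts. It differed by -0.0045 (SE 0.11), with KO3 and WT5 as the 2 low tumours. Within the 8 wider arrays its SD of 0.05 was the smallest of the 46 genes. Timp4 stood at 4.63, 4.89 and 5.49 in KO hosts, against 4.70, 4.92 and 5.14 in WT hosts. KO2 and KO3 were its highest tumours, in 8 tumours it lay below the lower quartile of its own array, and its difference was 0.08 (SE 0.17).

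Lysyl oxidase itself, Lox, is a target of hypoxia-inducible factors and varied most of its family. It stood at 8.27, 8.70 and 10.09 in KO hosts, against 7.98, 8.50 and 9.47 in WT hosts, with KO4, WT2, KO6 and WT6 highest. The difference was 0.29 (SE 0.33, 95% interval -0.42 to 1.01), and it was 0.06 without KO4. A part of hypoxia in the level of Lox was not tested. Beside Lox, 9 hypoxia response genes were measured, from a list chosen with earlier results of these data known. Of these 9, 0 passed the test and 7 had an unadjusted p under 0.05 (limma), each higher in KO hosts (1.28% of probe sets were). The median difference over the 9 was 0.71. Among them were Higd1a, which stood at 7.94, 8.02 and 8.56 in KO hosts and 7.07, 7.36 and 7.90 in WT hosts, and Ankrd37, at 7.05, 7.11 and 7.31 in KO hosts and 6.58, 6.77 and 7.04 in WT hosts.

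Loxl1, which is known for its role in elastic fibres, stood at 7.53, 7.79 and 8.48 in KO hosts, against 7.25, 7.58 and 7.83 in WT hosts. KO2 stood apart at 8.48, and KO6 lay below the WT median. Means of 7.87 ± 0.32 in KO hosts and 7.56 ± 0.19 in WT hosts (SD, n = 6 each) differed by 0.31 (SE 0.15, unadjusted p = 0.0502, adjusted p = 0.9935, limma), and by 0.19 without KO2. Loxl3 had the opposite sign and stood at 7.39, 7.80 and 8.12 in KO hosts, against 7.75, 8.19 and 8.40 in WT hosts. KO2, KO5 and KO3 lay below the lowest WT tumour, and the 4 highest tumours, WT6, WT4, WT5 and WT3, were all from WT hosts. Its difference was -0.30 (SE 0.15, unadjusted p = 0.065, adjusted p = 0.9935, limma). Loxl4 stood at 7.57, 8.30 and 8.51 in KO hosts, against 7.80, 8.27 and 8.53 in WT hosts, with KO2 and KO3 lowest and a difference of -0.09 (SE 0.17) that turned to 0.14 without them.

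**Figure D5:**
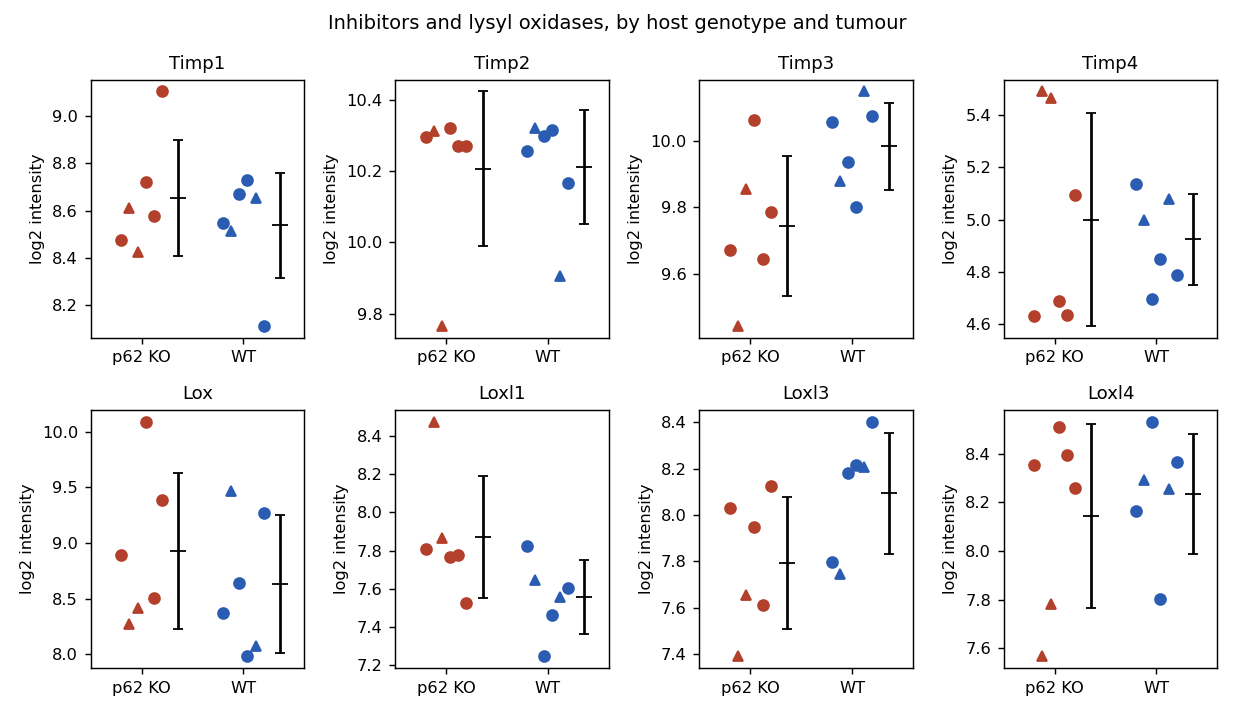
Log2 intensity (y axis) of the 4 TIMPs (top) and 4 lysyl oxidases (bottom) in each tumour of p62 KO hosts (red, left) and WT hosts (blue, right), with the mean and SD of the 6 tumours and triangles for the 4 arrays with the narrowest interquartile range. The groups overlap in every panel, with 4 KO tumours below all WT tumours in Timp3 and 2 KO tumours above all WT tumours in Loxl1.

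The ADAMTS proteases that cut proteoglycans include Adamts1, Adamts4, Adamts5, Adamts8, Adamts9, Adamts15 and Adamts20, and 6 of the 7 differences were positive with a median of 0.05. Adamts15 stood at 5.31, 5.43 and 5.93 in KO hosts, against 5.16, 5.28 and 5.43 in WT hosts. KO2, KO3 and KO1 lay above all WT tumours, and the difference of 0.23 (SE 0.11, unadjusted p = 0.0606, adjusted p = 0.9935, limma) was 0.15 without KO2. It was 0.087 without KO2 and KO3, and its probe set was among those left out as dim. Adamts4, an aggrecanase, stood at 6.96, 7.12 and 7.46 in KO hosts, against 6.88, 6.96 and 7.23 in WT hosts. KO4 and KO3 exceeded the highest WT tumour, and the difference was 0.15 (SE 0.10).

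Adamts1, which cleaves versican, and Adamts5, the other main aggrecanase, showed differences near 0. Adamts1 stood at 9.12, 9.90 and 10.62 in KO hosts, against 9.71, 9.93 and 10.08 in WT hosts, with KO3 and KO2 below all WT tumours and KO6 and KO1 above them. Its SD was 0.55 among KO tumours and 0.13 among WT tumours, and its difference was 0.0015 (SE 0.21). Adamts5 stood at 9.73, 9.98 and 10.83 in KO hosts, against 9.84, 10.21 and 10.47 in WT hosts, with KO4 highest, KO3 lowest and a difference of -0.0077 (SE 0.18). Differences of Adamts20, Adamts8 and Adamts9 were 0.15, 0.05 and 0.0097, with SEs of 0.10 to 0.16.

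Adamts12, which with Adamts7 degrades cartilage oligomeric matrix protein, stood at 7.58, 8.36 and 9.20 in KO hosts, against 7.59, 8.23 and 8.60 in WT hosts. KO1 was highest, KO3, WT5 and KO2 were lowest, and the difference was 0.16 (SE 0.26). Adamts13, which cleaves von Willebrand factor, stood at 4.95, 5.32 and 5.69 in KO hosts, against 5.02, 5.09 and 5.40 in WT hosts. Its difference was 0.15 (SE 0.13), with KO3, KO2 and KO1 above all WT tumours. It was 0.0099 without the narrow arrays KO2 and KO3 and -0.0063 with array weights, and its probe set was among those left out as dim. Adamts7 differed by 0.09 (SE 0.10). The measured procollagen N-proteinases Adamts3 and Adamts14, which trim fibrillar procollagens, differed by -0.10 (SE 0.14) and 0.02 (SE 0.11).

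Adamts6 was the most variable ADAMTS gene, with an SD of 0.59 over the 12 tumours. It stood at 6.30, 7.18 and 8.16 in KO hosts, against 7.18, 7.61 and 7.95 in WT hosts. KO3 and KO2 were far below the rest at 6.30 and 6.36, and KO4 was the highest of all. The difference of -0.45 (SE 0.29, 95% interval -1.06 to 0.17) was -0.28 without KO3, -0.048 without KO2 and KO3, and -0.13 with array weights. Adamts10, which like Adamts6 is linked to fibrillin fibres, stood at 7.03, 7.24 and 7.55 in KO hosts, against 7.12, 7.42 and 7.60 in WT hosts, with KO2 and KO3 lowest and a difference of -0.15 (SE 0.11). Adamts16 stood at 5.78, 6.12 and 6.48 in KO hosts, against 5.98, 6.16 and 6.78 in WT hosts, with WT6 highest and a difference of -0.13 (SE 0.15) that was -0.025 without WT6. Adamts17, Adamts18 and Adamts19 differed by 0.0024, 0.06 and 0.0047.

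Relations between tumours were examined for 8 pairs of genes, with two-sided p-values from 100000 permutations, or from an exact permutation test within 8 tumours, adjusted over the pairs. Where a p-value follows both r and rho, it is that of r unless rho is named. Mmp12 and Mmp10 fell into separate ranges in narrow and wider arrays, so their relations were taken within the 8 tumours with wider arrays. There Mmp12 and the macrophage marker Adgre1 had r = -0.40 and rho = -0.26 (permutation p = 0.33, adjusted p = 0.528). Mmp3 and Mmp10 had r = 0.58 and rho = 0.45 (permutation p = 0.133, adjusted p = 0.528), and Mmp3 and Mmp13 had r = -0.18 and rho = -0.31 (permutation p = 0.686, adjusted p = 0.915). None of these 3 relations passed within the 8. Without KO2 and KO3 alone, which leaves WT2 and WT5 in, Mmp12 and Adgre1 had r = -0.76 (permutation p = 0.00954, adjusted p = 0.0382). Their rho was then -0.61 (permutation p = 0.0663, adjusted p = 0.177).

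Over all 12 tumours, Timp1 and Il6 had r = 0.75 and rho = 0.45 (permutation p = 0.0108, adjusted p = 0.0289 for r and 0.235 for rho), and r was 0.19 without KO6 and WT6 (adjusted p = 0.615). This relation rests on those 2 tumours. Mmp14 and Timp2 had r = 0.58 (permutation p = 0.0471, adjusted p = 0.0943) and rho = 0.38 (permutation p = 0.22, adjusted p = 0.238). Without KO4 and WT5 their r was 0.43 and their rho -0.05, and r was 0.05 within the 8 wider arrays. Mmp2 and Timp2 had r = 0.52 and rho = 0.57 (permutation p = 0.101, adjusted p = 0.135), with r = 0.66 without KO5 and WT3. Within the 8 they had r = 0.41 (exact permutation p = 0.28, adjusted p = 0.528) and rho = 0.76 (exact permutation p = 0.0368, adjusted p = 0.294). Mmp2 and Mmp14 had r = 0.46 and rho = 0.41 (permutation p = 0.136, adjusted p = 0.141). Their r was 0.81 without KO5 and WT3 (adjusted p = 0.0382) and -0.037 within the 8 wider arrays (adjusted p = 0.935). Lox and the glucose transporter gene Slc2a1 had r = 0.45 and rho = 0.46 (permutation p = 0.141, adjusted p = 0.141), with r = 0.35 without KO4 and WT2 and 0.48 within the 8.

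Other genes of matrix turnover were read from lists chosen with earlier results of these data known, and in each list 0 genes passed the test. Counts of positive differences in these lists are from all 12 tumours, where 55.6% of all genes were positive. That share was 49.4% without KO2 and KO3, and the list counts without them are not given here. Of 15 other metalloproteinases 9 differences were positive with a median of 0.11. Adam8, a leukocyte sheddase, stood at 7.79, 8.22 and 9.39 in KO hosts, against 7.26, 7.66 and 8.38 in WT hosts (difference 0.63, SE 0.27), and Tll2, a tolloid-like procollagen protease, differed by 0.20 (SE 0.14). Of 7 ADAMTS-like genes 6 were positive with a median of 0.07, led by Adamtsl2 at 0.13 and Adamtsl4 at 0.08. Of 6 genes of plasminogen activation 5 were positive with a median of 0.09, where Plau, the urokinase gene, differed by 0.29 (SE 0.20) and Plg by 0.27 (SE 0.16).

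Among 12 activators and other inhibitors of MMPs 9 were positive with a median of 0.05. Ecm1, a matrix protein that binds Mmp9, stood at 9.22, 9.46 and 10.06 in KO hosts, against 8.87, 9.23 and 9.40 in WT hosts (difference 0.36, SE 0.14), and Spock1, a matrix proteoglycan, differed by 0.24 (SE 0.13). Of 10 cysteine cathepsins and cystatins 5 were positive with a median of -0.01, with the lysosomal proteases Ctsl at 0.32 (SE 0.14) and Ctsz at 0.21 (SE 0.12). Of 14 genes of collagen modification 10 were positive with a median of 0.09. In this list the prolyl hydroxylase subunits P4ha3 and P4ha2 had opposite signs, P4ha3 at -0.39 (SE 0.17) and P4ha2 at 0.51 (SE 0.23).

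Matrix substrates gave 12 positive differences of 18 with a median of 0.05, with the basement membrane collagen Col4a2 at 0.17 (SE 0.09) and Vwf, the substrate of Adamts13, at 0.15 (SE 0.09). Of 17 inducers and transcription factors of MMP genes 16 were positive with a median of 0.12, where 55.6% of all genes were positive. Induction of MMP genes by these factors was not tested. Fos, a subunit of AP-1, stood at 6.21, 6.36 and 6.51 in KO hosts, against 5.80, 6.06 and 6.48 in WT hosts (difference 0.29, SE 0.11), and the cytokine gene Lif differed by 0.25 (SE 0.15). Markers of neutrophils, a source of several MMPs, averaged 5.45 to 6.08 over 7 genes in KO hosts and 5.33 to 5.70 in WT hosts. Ly6g, Camp and Ngp among them averaged below the highest lower quartile, 0 of 7 passed, and 3 had an unadjusted p under 0.05, each higher in KO hosts (1.28% of probe sets were). This list, too, was chosen with earlier results of these data known.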

How the data were processed

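The deposited series table holds log2 intensities per probe set, made by the authors with RMA (version not given in the sources used here), per the submitters' processing notes. Of 34760 rows, 6568 without annotation at the start of the table were taken as controls and 28192 were tested, of which 21640 had 1 symbol, 1321 several and 5231 none. The genes had 71 probe sets, and 4 genes (Adamts3, Adamts9, Adamts17 and Loxl4) had several. The test between hosts was that of limma 3.58.1 (R 4.3.3; lmFit, eBayes, two-sided, Benjamini-Hochberg over all tested probe sets, adjusted p under 0.05). The test was tried on simulated data. Precision is limited by the number of arrays, which carry no counts.

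The genes, lists and pairs were chosen with earlier results of these data known. Values in full are given for all TIMPs and lysyl oxidases, for the MMPs and ADAMTS genes with the 3 smallest unadjusted p in each direction or the 4 largest SDs, and for genes of the pairs. Lists name the 2 genes with the smallest p. Of the 10 pairs planned, Lox with Loxl2 and Adamts2 with Col1a1 were not analysed, because Loxl2 and Adamts2 had no probe set of 1 symbol, and p-values were adjusted over the other 8. Promoters and gene order are from RefSeq. Alternatives were other scalings, filters, variance models, a block, a covariate and the omission of tumours.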

Additional observations from a re-analysis of the deposited data

Results flagged for a closer look

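In 7 of 92 groups of 6 tumours, 1 tumour stood far from the other 5 by Dixon's criterion, where chance gives about 1 in 20. In KO hosts these were KO3 in Timp2, at 9.77 against 10.27 to 10.32 in the other 5, KO2 in Loxl1, at 8.48 against 7.53 to 7.86, and KO6 in Mmp11, at 7.98 against 7.39 to 7.53. In WT hosts they were WT5 in Mmp1a, at 8.34 against 5.15 to 6.18, WT6 in Timp1, at 8.11 against 8.52 to 8.73, WT4 in Mmp19, at 7.28 against 6.79 to 6.94, and WT4 in Mmp24, at 6.00 against 6.11 to 6.16. KO2, KO3 and WT5 are among the 4 narrow arrays, and WT4, WT6 and KO6 are not.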

How the results depend on the processing

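Under the 11 other settings and 12 leave-outs, 0 of the 46 genes were called (30 of the 46 were tested with dim probe sets left out), with a smallest adjusted p of 0.611, and the share of probe sets with an unadjusted p under 0.05 was 1.54% to 7.72%. The 1 lower call over all probe sets became 0 with dim probe sets left out (14096 probe sets tested), with all rows tested, without KO2 and KO3 and with the mouse number as a replicate block, and lay between 0 and 1 over the leave-outs. The block (smallest adjusted p = 0.999) changed no other call. Over all probe sets, the deviations of same-numbered tumours from their group means correlated at 0.14, 0.37, -0.55, 0.37, -0.54 and 0.34. By these deviations 0 of 6 KO tumours matched their own number best. The values show no pairing by number, but they cannot exclude a pairing, because array spread also enters such deviations.

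Log2 differences of 26 of the 46 genes turned sign under at least 1 setting other than a leave-out, and the cause was not tested. Without KO2 and KO3 they were -0.025 for Mmp13, -0.88 for Mmp1a, 0.12 for Mmp19, -1.004 for Mmp20, 0.037 for Mmp23, -0.41 for Mmp27, -0.063 for Mmp28, -0.37 for Mmp10, 0.043 for Mmp11, -0.39 for Mmp3, -0.76 for Mmp7, 0.079 for Timp2, -0.16 for Timp4, -0.10 for Adamts17, -0.059 for Adamts18, -0.21 for Adamts19, -0.018 for Adamts20, 0.16 for Adamts5, -0.039 for Adamts8 and 0.14 for Loxl4. Without these and WT2 and WT5 they were -0.30 for Mmp1a, 0.013 for Mmp16, 0.054 for Mmp19, -0.33 for Mmp20, -0.12 for Mmp27, -0.013 for Mmp28, 0.099 for Mmp11, -0.28 for Mmp3, -0.34 for Mmp7, 0.031 for Timp2, -0.11 for Timp4, -0.081 for Adamts17, -0.097 for Adamts19, 0.011 for Adamts5, -0.061 for Adamts8 and 0.16 for Loxl4. Array weights gave -0.48 for Mmp1a, 0.038 for Mmp19, -0.59 for Mmp20, -0.20 for Mmp27, -0.047 for Mmp28, -0.13 for Mmp10, 0.055 for Mmp11, -0.41 for Mmp3, -0.45 for Mmp7, 0.041 for Timp2, -0.15 for Timp4, -0.0063 for Adamts13, -0.099 for Adamts17, -0.032 for Adamts18, -0.16 for Adamts19, 0.091 for Adamts5, -0.074 for Adamts8 and 0.17 for Loxl4. The interquartile range as a covariate gave -0.10 for Mmp1a, -0.22 for Mmp20, -0.16 for Mmp7, 0.029 for Timp2, -0.034 for Adamts17, -0.072 for Adamts19 and 0.065 for Adamts5. Quantile normalization gave 0.017 for Mmp23, 0.0005 for Mmp11, 0.038 for Timp2, -0.046 for Adamts19, -0.019 for Adamts14, 0.0425 for Adamts5 and -0.0059 for Adamts8. A common median gave -0.032 for Adamts17, -0.030 for Adamts19, -0.013 for Adamts14, -0.033 for Adamts1 and -0.025 for Adamts9. The mean of all probe sets gave 0.026 for Adamts3. Leave-outs turned 20 of the 46 genes, with ranges of -0.23 to 0.76 for Mmp1a, -0.10 to 0.099 for Mmp16, -0.15 to 0.023 for Mmp19, -0.32 to 0.56 for Mmp20, -0.14 to 0.029 for Mmp23, -0.030 to 0.11 for Mmp28, -0.098 to 0.031 for Mmp11, -0.11 to 0.42 for Mmp3, -0.24 to 0.36 for Mmp7, -0.065 to 0.084 for Timp2, -0.022 to 0.15 for Timp4, -0.024 to 0.30 for Adamts12, -0.041 to 0.038 for Adamts17, -0.017 to 0.14 for Adamts18, -0.083 to 0.062 for Adamts19, -0.026 to 0.073 for Adamts14, -0.14 to 0.16 for Adamts1, -0.15 to 0.074 for Adamts5, -0.084 to 0.11 for Adamts9 and -0.18 to 0.024 for Loxl4. Without KO2 and KO3 the sign held and the size moved by over 1.5 times in the following genes, at -1.96 for Mmp1b, -0.058 for Mmp2, 0.25 for Mmp14, -0.16 for Mmp16, 0.093 for Mmp17, 0.018 for Mmp24, -0.13 for Mmp25, 0.036 for Mmp21, 0.14 for Mmp12, 0.18 for Timp1, 0.50 for Adamts12, 0.0099 for Adamts13, 0.0055 for Adamts7, -0.046 for Adamts10, -0.048 for Adamts6, 0.14 for Adamts14, -0.30 for Adamts3, 0.28 for Adamts1, 0.087 for Adamts15, 0.18 for Adamts9, 0.59 for Lox, 0.16 for Loxl1 and -0.16 for Loxl3.

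Pooled over all 12 tumours, which mixes separate ranges, r was -0.89 for Mmp12 and Adgre1 (adjusted p = 0.00192) and 0.78 for Mmp3 and Mmp10 (adjusted p = 0.00604), and within the 8 wider arrays -0.40 and 0.58 (adjusted p = 0.528 each). Mmp12 and Adgre1 had -0.76 without KO2 and KO3 (adjusted p = 0.0382), with WT2 and WT5 still in, and Mmp3 and Mmp10 had 0.64 without KO2 and WT6 (adjusted p = 0.0776). Mmp3 and Mmp13 had 0.54 pooled and -0.18 within the 8, Mmp2 and Mmp14 0.46 pooled, 0.81 without KO5 and WT3 and -0.037 within the 8, and Timp1 and Il6 0.75 pooled, 0.19 without KO6 and WT6 and 0.79 within the 8 (adjusted p = 0.228). Dim levels were not set against background, because no detection calls were used.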

Other observations

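Dcun1d5 and Tmem123, which flank the chromosome 9 run of MMP genes, had SDs of 0.19 and 0.13 over the 12 tumours and differed by 0.0012 (SE 0.12) and -0.04 (SE 0.09) between hosts, and Dync2h1, Birc2, Birc3 and Yap1 had SDs of 0.22, 0.17, 0.56 and 0.18. Despite its small SD, Dcun1d5 was highest in KO2, WT5, KO3 and WT2, as were 7 genes of the run and 11.0% of all genes. It stood at 11.61 to 11.80 in these 4 and at most at 11.55 in the other 8. Mmp8, which lies within the run, had an SD of 1.12 and stood at 6.29, 7.42 and 9.71 (lowest, median and highest) in KO hosts, against 6.63, 7.34 and 8.72 in WT hosts, a difference of 0.46 (SE 0.57). Farther out, with 6 measured genes between it and Mmp7, the transcribed pseudogene 1700128F08Rik had the second largest SD of all genes, 1.51. It stood at 4.59, 5.29 and 9.19 in KO hosts, against 5.03, 5.82 and 7.03 in WT hosts, and its 4 highest tumours were KO3, KO2, WT5 and WT2, as in 7 genes of the run. Among other genes near the run, Ddi1, Cep126 and Pdgfd had SDs of 1.06, 0.87 and 0.79, and KO5 was the lowest tumour in each, at 6.10, 7.93 and 8.51. These genes were chosen after their values were seen.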
